A study of Gallus gallus with 403 samples.

Results

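The cell cycle genes described here are a list of 38 genes of DNA replication and cell division, 12 of them S phase genes and 26 mitosis genes. A probe set that names only that gene was found for 34 of them, 10 S phase and 24 mitosis genes, among the 13009 genes of the array that could be named in this way. MCM4, CDC6, CCNB2 and AURKA had none under their own symbol. CCNB2 is listed as a synonym under CCNB1, which has a probe set and was treated as a non-member. Where several probe sets named a gene, the probe set with the highest mean over all arrays stood for it. The rule picks members by gene symbol, and measured values enter only in the choice among probe sets of a gene. The list itself was drawn up with earlier results of these data known.

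The series holds RNA of 20 chicken tissues or cell types at labelled ages, measured on Affymetrix Chicken Genome arrays in 101 groups of tissue and age, of which 94 have 4 arrays, 5 have 3 and 2 have 6. The labels give 203 arrays as female and 200 as male. They name no treatment and no strain, and do not say from which event days are counted or whether the arrays of a group came from separate birds, so a p-value here measures only the spread between these arrays, which may be technical. Abdominal fat was sampled at days 1, 7, 10, 14, 21, 28, 35, 42 and 49. Brain was sampled at days 0, 1, 7 (2 sets), 8, 9, 14, 21, 28, 35, 42 and 49, cerebral cortex at day 7, pineal gland at days 1, 7, 14, 21 and 28, and retina at days 1, 7, 9, 14, 21, 28 and 35. Of the gut, duodenum was sampled at days 0, 1, 7, 14, 21, 28, 35, 42 and 49, jejunum at days 1, 7, 14, 21, 28, 35 and 42, whole intestine at days 0, 1, 3, 7, 14, 21 and 28, ileum at day 28 and cecal epithelia at day 14. Liver was sampled at days 0, 1, 3, 7, 9, 49 and 56, lung at days 1, 7, 14, 21, 28, 35 and 42, and spleen, gastrocnemius muscle and the tibiotarsus growth plate at days 1, 7, 14, 21 and 28. Pectoralis muscle was sampled at days 0, 1, 7, 14, 21 (2 sets) and 28. The gonad groups were ovarian cortex at week 16, testes and ovary at week 17, oocytes at week 21 and ovary at year 2.

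In S phase a cell copies its DNA: the MCM proteins and CDC45 unwind it, PCNA clamps the polymerase to it, ribonucleotide reductase (RRM1, RRM2) and thymidylate synthase (TYMS) make its building blocks, and cyclin E2 (CCNE2) helps to start the phase. In mitosis CDK1 with its cyclins drives entry, kinesins and their partners build the spindle, condensin (SMC2, SMC4, NCAPG) compacts the chromosomes, the checkpoint proteins BUB1, BUB1B, MAD2L1 and TTK hold back separation until every chromosome is attached, and CDC20 then switches on the machinery that ends it. Most of these transcripts are made mainly in cycling cells, so that in a whole tissue their level is commonly read as a sign of dividing cells. In bulk RNA fewer dividing cells and less of these RNAs per cell cannot be told apart.

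All values are log2 intensities as deposited, so a difference of 1 is a doubling. No detection call was used, so whether a value near or under the array median stood above background is unknown, and a difference against such a group has no known floor. Sample numbers form 2 runs (251 and 152 arrays), with array medians of 6.05 to 6.47 in the first and 5.99 to 6.18 in the second, and every test stayed within a run. Groups of the first run still differed in spread. Their median SD over genes was 0.483 in duodenum day 0 and 0.154 at day 35, and 0.441 in brain day 0 and 0.117 at day 42. In liver it was 0.422 at day 0 and 0.144 at day 1. The reason is not known, and a difference between such groups cannot be told apart from it. Each fit pooled the variance over its groups. Some groups stood apart or went against their labels. Liver day 56 averaged 6.83 over the 5 liver markers, against 13.48 at day 49, and its highest correlation with any other group was 0.383. The pectoralis day 21 group of the first run averaged 10.69 over 5 muscle markers, against 13.47 at day 0, with correlations of 0.678 to 0.733 between its arrays, and 6 more pectoralis arrays carry day 28 in the title and day 21 in the source name and were in no test. The 16 arrays of gastrocnemius day 21, gastrocnemius day 28, the second pectoralis day 21 set and pectoralis day 28 matched each other array by array, each array having 1 partner in each other group, mostly of another number, with correlations of their deviations of 0.69 to 0.83 between partners and at most -0.17 otherwise. Brain days 1, 7 (second set), 14 and 21 averaged 7.90 to 8.00 over 7 brain markers, against 11.64 at day 0. Ovary week 17 is labelled male, and the oocytes group holds arrays labelled male as well as arrays labelled female. The oocytes group was at 5.92 for GDF9 and 5.61 for DDX4, genes that define oocytes and germ cells, against 11.57 and 6.82 in ovary week 17, so it is called here the group labelled oocytes.

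The mitosis genes were highest in the gonads. Outside them both classes were high in young duodenum, liver, spleen and fat, in cecal epithelia and in the brain groups with low brain markers. Fat days 1 and 10 had low fat markers as well. Jejunum was low already at day 1, and the lowest groups differed between mitosis and S phase genes. To set groups side by side, each member's level was taken relative to its mean over the 101 groups, and the median over the members of a class was formed per array. On this scale the mitosis genes were highest in ovary week 17 at 2.54 ± 0.09 (SD, n = 3), followed by ovarian cortex week 16 at 2.40 ± 0.15 (n = 3), ovary year 2 at 2.29 ± 0.12 (n = 3), the group labelled oocytes at 2.28 ± 0.15 (n = 4) and testes at 2.19 ± 0.10 (n = 3), neighbours that differed by little more than their spread. The S phase genes were highest in the group labelled oocytes at 2.19 ± 0.15 and ovarian cortex at 2.00 ± 0.19, and reached 1.34 ± 0.12 in ovary week 17. Some groups outside the gonads stood as high or higher for S phase, with 1.57 ± 0.17 in the second brain day 7 set and 1.52 ± 0.48 in duodenum day 0 (n = 4 each). Outside the gonads the mitosis genes stood at 1.74 ± 0.30 in duodenum day 0, 1.68 ± 0.11 in cecal epithelia day 14, 1.68 ± 0.32 in fat day 10 and 1.58 ± 0.16 in liver day 3 (SD, n = 4 each), values that overlap within their spread. They were lowest in retina day 14 at -1.77 ± 0.08, retina day 1 at -1.68 ± 0.08 and retina day 7 at -1.67 ± 0.16 (n = 4 each), and outside retina in brain day 49 at -1.43 ± 0.12. The S phase genes were lowest in jejunum day 42 at -1.11 ± 0.31, liver day 56 at -1.11 ± 0.09 (n = 3), pectoralis day 21 of the first run at -1.10 ± 0.25, jejunum day 28 at -1.04 ± 0.21 and fat day 42 at -1.0 ± 0.25 (n = 4 where not given). In retina the S phase genes stood at -0.28 to -0.40 at days 14 to 35, groups that stood apart, and at -0.74 to -0.86 at days 1, 7 and 9. Levels of groups from different runs are set side by side as a description only.

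**Figure D1:**
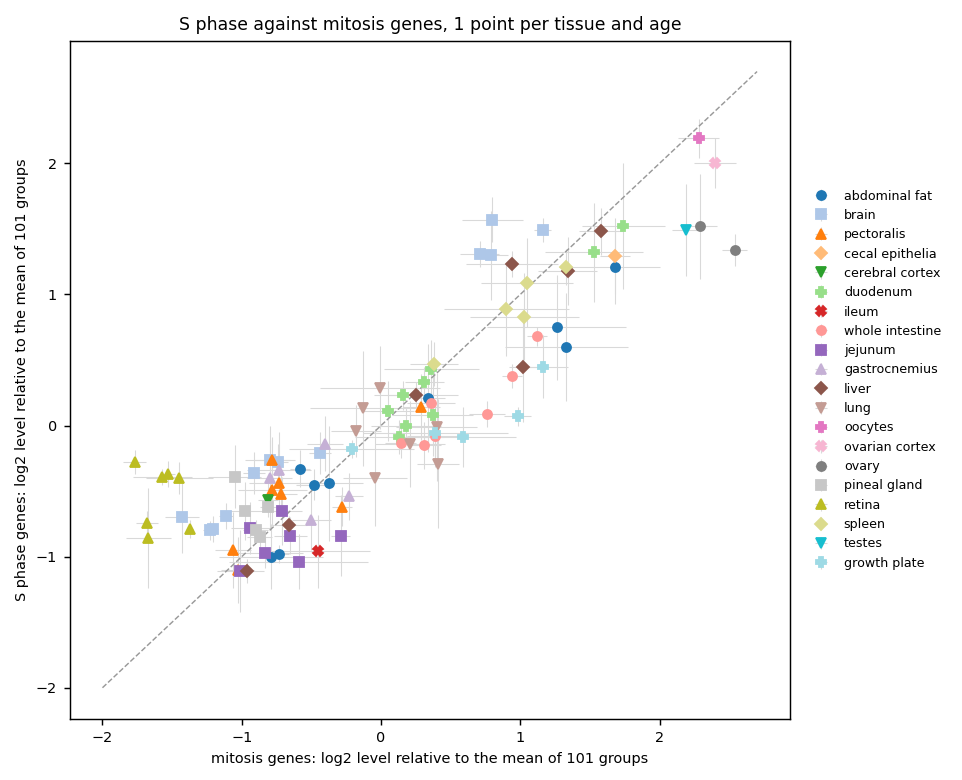
Level of the 10 S phase genes (vertical axis) against that of the 24 mitosis genes (horizontal axis), each the median over the class of log2 levels relative to the mean of 101 groups; a point is the mean of a tissue and age, lines are the SD over its arrays, and the dashed line marks equal levels. Gonads sit at the top right, retina at the far left above the line, and the gonad group farthest below the line is ovary week 17 at 2.54 for mitosis and 1.34 for S phase.

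The 2 classes did not run level in every tissue. In retina the S phase level exceeded the mitosis level by 0.58 to 1.49 in the 7 age groups, highest at day 14 (1.49 ± 0.17, n = 4), and in brain by 0.23 to 0.77 in the 12 groups. Growth plate day 28 lay the other way at -0.91 ± 0.12 (n = 4), as did ovary week 17 at -1.20 ± 0.04 (n = 3). TYMS and PCNA are given as single examples, and which members make up these differences was not tested. Retina day 9, whose values are given, had the smallest excess of the 7 retina groups (0.58 ± 0.08, n = 4). TYMS averaged 9.05 ± 0.08 in retina day 9 and 9.50 ± 0.37 in brain day 49, against 9.21 ± 0.51 in brain day 1, where the mitosis genes stood more than 2 log2 units higher than in brain day 49. PCNA, which also serves DNA repair, averaged 10.64 ± 0.05 in retina day 9 (n = 4). In brain PCNA differed by -2.80 at day 49 against day 1, a group with low brain markers.

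Members differed in how far they ranged. Among the S phase genes TYMS covered 6.02 log2 units between its highest and lowest group mean, RRM2 5.59, CDC45 5.28 and PCNA 5.08, where the lowest group of TYMS and PCNA was liver day 56. Among the mitosis genes CKS2, a small subunit that binds CDK1, covered 7.52, CDC20 7.11, KIF23, a kinesin of the last step of division, 6.90, TPX2, a spindle assembly factor, 6.68, CDK1 6.62 and the kinase PLK1 6.44. The narrowest ranges were 3.27 for KIF20A, 3.34 for CENPF and 3.49 for RRM1. Of the 34 members, 27 had their highest group mean in a gonad group, 3 in fat, 3 in brain and 1, MKI67, in spleen day 1. Of the 27, 8 lay in the group labelled oocytes, 8 in ovarian cortex, 7 in an ovary group and 4 in testes. The 3 in brain were RRM1 and MCM6 in the second day 7 set and PCNA at day 21, groups with low brain markers. The lowest group mean lay in retina for 19 members. Across the 101 group means the median correlation between members was 0.75 over 276 pairs of mitosis genes (0.20 to 0.95), 0.63 over 45 pairs of S phase genes (0.18 to 0.93) and 0.60 over 240 pairs of the 2 classes (0.11 to 0.91), where groups of the same tissue share that tissue's level. The members least like the mean of the others were CCNE2 (0.53), RRM1 (0.60), TYMS (0.61), ECT2 (0.62), MCM3 (0.63) and CENPF (0.63), and the most alike were TPX2 and BUB1B (0.95 each). Among genes that are no members, KPNA2 at 0.96, CDCA3 at 0.94 and CCNB1, the main B-type cyclin, at 0.94 were the most like the mean profile of the members over the same groups, followed by NEK2, BIRC5, PBK and CKAP2 at 0.92, SKA3 and UBE2U at 0.91 and AURKB at 0.89. For MCM2, MCM6, CCNA2, BUB1, BUB1B, MAD2L1 and KIF20A at least 1 other probe set of the gene correlated with the one used at 0.03 or less.

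In abdominal fat nearly all cell cycle genes were lower at the late ages. Day 49 was set against day 10 in the first run and day 42 against day 1 in the second, with a gene called where limma's adjusted p over all genes was under 0.05 and the log2 difference at least 1. At day 49, 9 of 10 S phase genes and 22 of 24 mitosis genes were called lower than at day 10 and none higher, where 25% of all 12471 genes tested were called lower and 5.44% higher. The median difference was -2.26 over the S phase genes and -2.55 over the mitosis genes, against -0.10 over all genes tested. At day 42 the counts against day 1 were again 9 of 10 and 22 of 24 lower, with medians of -2.05 and -2.27 against -0.27 over all genes, where 29.4% of 12657 genes were called lower and 7.20% higher.

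RRM2, the regulated subunit of ribonucleotide reductase, was at 5.94, 6.15, 6.14 and 6.02 in fat day 49, against 10.73, 9.19, 10.63 and 10.04 at day 10. No array of the older group came near the younger ones, and the difference was -4.09 (SE 0.29, limma adjusted p = 1.03e-08), with day 49 near or under the array median. CDC20 was at 5.38, 5.91, 5.51 and 5.63 at day 49, against 9.20, 9.30, 9.78 and 9.82 at day 10, again without overlap, and fell by 3.92 (SE 0.26, limma adjusted p = 5.02e-09). CDC45 was at 5.42, 5.36, 5.29 and 5.24 at day 49, against 8.26, 7.79, 8.90 and 8.77 at day 10. TPX2 was at 7.30, 7.73, 7.50 and 7.43 at day 49, against 10.79, 10.44, 11.06 and 11.17 at day 10. For these genes too the groups were apart, with differences of -3.10 (SE 0.23) and -3.37 (SE 0.22). The same held for the condensin subunit SMC4 (-3.55), cyclin A2 (CCNA2, -3.32), CKS2 (-3.06), KIF23 (-3.01), the proliferation marker MKI67 (-2.99) and KIF20A (-2.97). PCNA averaged 9.70 ± 0.25 at day 49 and 11.88 ± 0.26 at day 10 (SD, n = 4 each) and fell by 2.17. The members not called were CCNE2 (-0.61), TTK (-0.55) and ECT2, an activator of the division ring (-0.37), whose sizes fell short although their adjusted p-values were 0.000276, 0.00423 and 0.022.

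In the second run CDC45 was at 5.25, 5.69, 5.62 and 5.84 in fat day 42, against 9.08, 9.13, 8.52 and 8.02 at day 1, a difference of -3.09 (SE 0.39, limma adjusted p = 4.2e-08). CKS2 was at 4.88, 5.05, 5.44 and 5.09 at day 42, against 9.21, 8.91, 7.82 and 8.14 at day 1, a difference of -3.40 (SE 0.40, limma adjusted p = 1.03e-08). Groups did not overlap for either gene. CDC20 spread more widely, with 6.34, 7.27, 4.66 and 6.57 at day 42 against 10.07, 9.93, 10.09 and 9.12 at day 1. TTK (-0.60), CCNE2 (-0.26) and ECT2 (0.58) were again not called.

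The step with the most members called was that between days 10 and 14 in the first run and that between days 7 and 28 in the second. At day 14, 6 S phase and 16 mitosis genes were called lower than at day 10, where 12.9% of all genes were, led by PLK1 (-2.60), SMC4 (-2.56), the spindle motor KIF11 (-2.44) and CDC45 (-2.38). KIF23 and MKI67 were not among them: KIF23 averaged 8.70 at day 14 and fell by 1.87 between days 21 and 49. At day 21, 1 S phase and 4 mitosis genes (RRM2, TPX2, SMC2, KIF20A and CDC20) were called lower than at day 14, where 1.11% of all genes were, a count that was 2 and 1 without the arrays numbered 1 or 3 and 10 without those numbered 2 or 4. At day 49, MCM6, RRM2 and 5 mitosis genes were called lower than at day 21 and MCM3 and ECT2 higher, where 18.7% of all genes were lower and 5.65% higher, and 4 members in all were called when all probe sets of a gene were averaged. Among 34 members tested these counts lie near the shares over all genes and are no result about the members as a list. In the second run no member was called between days 1 and 7 (limma, with 1 member at an unadjusted p under 0.05, and 0% of all genes called). At day 28, 5 S phase and 20 mitosis genes were lower than at day 7, where 10.8% of all genes were, with SMC4 at -4.22 and CCNA2 at -2.80. No member was called at day 35 against day 28 (8 at an unadjusted p under 0.05; 0.0237% of all genes lower and 0.537% higher), and 1 was called without the arrays numbered 1. At day 42, 3 S phase and 2 mitosis genes were lower than at day 35, where 24.1% of all genes were, and 3 or 1 without the arrays numbered 1 or 4. That count among 34 members lies under the share over all genes and is no result about the members as a list.

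**Figure D2:**
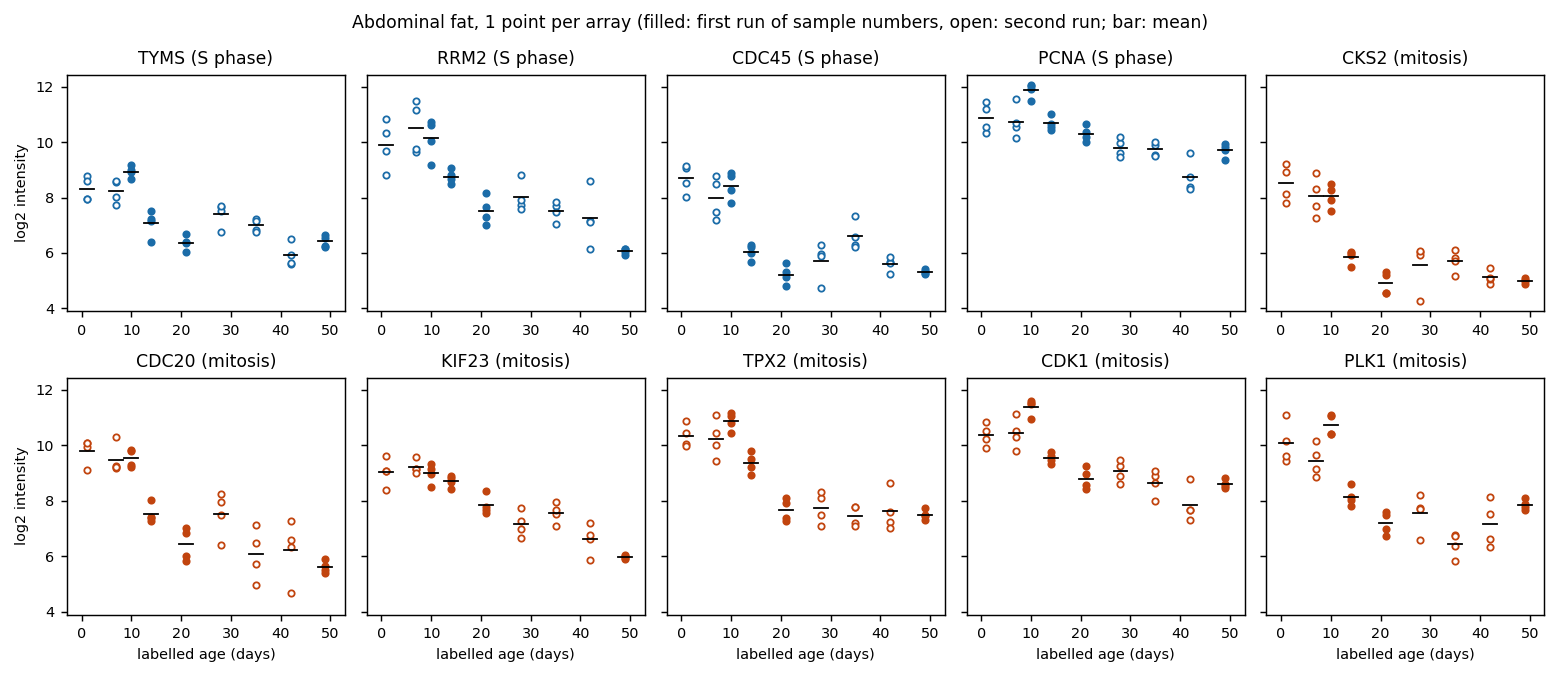
Log2 intensity (vertical axis) of 4 S phase and 6 mitosis genes in abdominal fat by labelled age in days (horizontal axis), 1 point per array, with filled points for the first run of sample numbers, open points for the second and a bar for the mean of 4 arrays. In the first run RRM2 and CDC20 are above 9 in all arrays at day 10 and near 6 or below in all arrays at day 49.

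Fat markers moved with these differences. All 6 of 6 fat markers were called higher at day 49 than at day 10 and at day 42 than at day 1, with a mean over the list of 12.52 to 12.89 per array at day 49 against 7.38 to 7.76 at day 10, and of 11.44 to 12.48 at day 42 against 6.62 to 7.39 at day 1. ADIPOQ, the adipocyte hormone adiponectin, was at 11.47 at day 49 against 6.16 at day 10, and at 10.76 at day 42 against 6.05 at day 1. Of the 7 measured markers of erythroid cells 3 were higher in each comparison, with array means of 7.67 to 8.15 at day 49 against 5.99 to 6.09 at day 10. The part of fat cells and red cells in the fall of the cell cycle genes was not tested.

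In the duodenum, where crypt cells divide throughout life, the cell cycle genes were lower at later ages in both runs. At day 35, 6 of 10 S phase and 19 of 24 mitosis genes were called lower than at day 0 and none higher, where 10.3% of all 12551 genes were lower and 10.2% higher. In the second run 7 S phase and 18 mitosis genes were lower at day 49 than at day 1, where 7.21% of 12356 genes were lower and 8.55% higher. Median differences were -1.29 and -1.26 at day 35, and -1.23 and -1.34 at day 49, for S phase and mitosis genes in that order.

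PLK1 was at 8.40, 8.23, 8.65 and 8.19 in duodenum day 35, against 10.99, 11.05, 11.80 and 10.92 at day 0, a difference of -2.82 (SE 0.27, limma adjusted p = 1.62e-08). CDC45 was at 5.64, 5.66, 5.85 and 5.84 at day 35, against 7.79, 9.19, 9.68 and 8.25 at day 0, a difference of -2.98 (SE 0.27, limma adjusted p = 5.02e-09). The older arrays were below all younger ones for both genes, and this was also so for RRM1 (-2.43), KIF11 (-2.39), CCNA2 (-2.10) and the DNA untangling enzyme TOP2A (-1.85). CDK1 stayed high, at 10.49, 10.31, 10.60 and 10.06 at day 35 against 11.96, 12.28, 11.45 and 12.06 at day 0, and fell by 1.57 (SE 0.27). PCNA (-0.78, adjusted p = 0.0356), MAD2L1 (-0.93, adjusted p = 0.0107) and MKI67 (-0.78, adjusted p = 0.0596) were not called. At day 49 the falls against day 1 were led by RRM1 (-2.57), PLK1 (-2.54) and BUB1B (-2.36), while CDK1 at -0.75 was not called (adjusted p = 0.179).

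In the first run most of the calls came before day 7. At day 7, 8 S phase and 21 mitosis genes were lower than at day 0, where 8.28% of all genes were, with CDC20 at -2.47 and RRM2 at -2.43. That count was 12 with array weights and 15 when only these groups were fitted. At day 14, CDC45, RRM1, MCM3, PLK1 and ECT2 were lower than at day 7, where 5.31% of all genes were, a count of 3 without the arrays numbered 2 and of 9 without those numbered 3. No member was called in the steps to days 21, 28 and 35 (limma, with 1, 0 and 0 members at an unadjusted p under 0.05, and 0% of all genes called in each). At day 42, 4 S phase and 18 mitosis genes were lower than at day 1, where 6.55% of 12356 genes were, or 14 and 12 members in all without the arrays numbered 3 or 4. Day 49 did not add to it (0 members called by limma and 0 at an unadjusted p under 0.05, 0.0324% of all genes lower and 0.0162% higher).

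Other cell types moved too. At day 35, 6 of 8 markers of fibroblasts were lower than at day 0, with a list mean of 8.28 to 8.66 per array against 10.25 to 10.39, 8 of 13 lymphocyte markers were higher (7.90 to 8.08 against 6.03 to 6.33), and 4 of 7 markers of the intestine lining were higher (10.98 to 11.11 against 9.78 to 10.53). At day 49, 5 of 8 fibroblast markers were lower and 7 of 13 lymphocyte markers higher than at day 1. Their part in the cell cycle result was not tested.

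Whole intestine showed a smaller fall with tight replicates. At day 14, 3 S phase and 6 mitosis genes were called lower than at day 0, where 1.4% of all 11704 genes were lower and 2.40% higher, and all 34 members were lower in sign. The genes were MCM2 (-1.22), MCM5 (-1.15), RRM2 (-1.1), SMC2 (-1.32), CDC20 (-1.08), TOP2A (-1.08), CCNA2 (-1.07), DLGAP5, a spindle protein (-1.02), and KIF20A (-1.0). RRM2 was at 7.42, 7.86, 6.71 and 6.84 at day 14, against 8.22, 8.25, 8.41 and 8.33 at day 0. CDC20 was at 7.53, 7.41, 7.56 and 7.70 at day 14, against 7.98, 8.32, 9.05 and 9.19 at day 0. All older arrays lay below all younger ones for these genes, yet many differences were close to the size required. The count of members called was 5 without the arrays numbered 3. With all arrays it was 4 when a gene's probe sets were averaged. Of the lymphocyte markers 5 of 12 were higher at day 14, and of the macrophage markers 8 of 9, with a part in the result that was not tested.

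In jejunum no fall passed the test. No member was called at day 28 against day 14 (limma, 7 at an unadjusted p under 0.05), where 0.497% of all 11663 genes were lower and 7.28% higher, or at day 42 against day 1 (limma, 6 at an unadjusted p under 0.05), where 1.32% of 12634 genes were lower and 3.66% higher. The largest differences at day 42 were SMC2 at -1.21 (adjusted p = 0.118) and CDC20 at 1.14 (adjusted p = 0.171), where CDC20 had an SD of 1.43 at day 1. The jejunum was already low at day 1, with a mitosis level of -0.94 ± 0.14, and 1 member was called at day 42 without the arrays numbered 1.

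In liver 9 of 10 S phase genes and 16 of 24 mitosis genes were called lower at day 49 than at day 0 and none higher, where 7.94% of all 12715 genes were lower and 4.76% higher. The median difference was -2.12 over the S phase genes and -1.31 over the mitosis genes. CDK1 was at 8.69, 7.25, 8.35 and 7.66 at day 49, against 11.12, 10.80, 10.76 and 10.65 at day 0, a difference of -2.84 (SE 0.23, limma adjusted p = 1.41e-10). TYMS was at 7.20, 5.56, 6.70 and 6.37 at day 49, against 9.77, 9.54, 9.64 and 8.81 at day 0, a difference of -2.98 (SE 0.26, limma adjusted p = 9.09e-10). Neither gene overlapped between the groups, and MKI67 (-3.10), MCM6 (-2.96), SMC2 (-2.67), PLK1 (-2.66), CDC20 (-2.64) and MCM2 (-2.47) were apart as well. CKS2, which fell far in fat and brain, was at 5.02, 6.13, 5.47 and 5.73 in liver day 49 against 5.99, 6.22, 6.18 and 6.49 at day 0, and was not called (-0.63, adjusted p = 0.0209). SMC4 (-1.0, adjusted p = 0.0151), just under the size required, and NCAPG (-0.84, adjusted p = 0.00575) were not called either. Of the lymphocyte markers 8 of 13 were higher at day 49 (7.54 to 7.83 per array against 5.94 to 6.57 at day 0), as were 9 of 9 macrophage markers, and their part was not tested.

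The liver genes did not fall at first. NCAPG (1.12), BUB1B (1.35) and BUB1 (1.36) were called higher at day 1 than at day 0, where 0.959% of all genes were, a count of 8 or 5 without the arrays numbered 1 or 4 and of 0 when a gene's probe sets were averaged. RRM2 was called higher at day 3 than at day 1 (1.07, adjusted p = 0.0423), where 1.16% of all genes were, and was not called without the arrays numbered 1, 3 or 4. The next steps held different shares of the 2 classes. At day 7, 6 S phase genes (MCM6 at -2.16, RRM2, CDC45, MCM2, MCM5 and TYMS) and 3 mitosis genes (ECT2 at -1.77, SMC2 and CCNA2) were lower than at day 3, where 2.93% of all genes were. At day 9, no S phase gene and 10 mitosis genes were lower than at day 7, led by CKS2 (-1.72), NUSAP1, a spindle microtubule protein (-1.53), and DLGAP5 (-1.36), where 7.09% of all genes were, and 5 members were called after quantile normalization. Whether the 2 classes differed between these steps was not tested. Both steps rest on day 7, whose highest correlation with any other group was 0.933 (day 3), while days 3 and 9 correlated at 0.988. The S phase level minus the mitosis level was -0.57 ± 0.39 at day 7, -0.10 ± 0.16 at day 3 and -0.02 ± 0.31 at day 9 (SD, n = 4 each). The day 7 arrays were split in their S phase level, at 0.71 and 0.89 in arrays 1 and 2, labelled male. Arrays 3 and 4, labelled female, were at 0.08 and 0.10, while the mitosis level was 0.92 to 1.15 over the same arrays. At day 49, 5 S phase and 11 mitosis genes were lower than at day 9, where 4.38% of all genes were, with BUB1 at -2.66 and CDK1 at -2.42, and 10 members were called when a gene's probe sets were averaged.

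In brain the size of the fall depended on which groups were compared. In the second run 9 of 10 S phase and 20 of 24 mitosis genes were called lower at day 49 than at day 1 and none higher, where 11.3% of all 12478 genes were lower and 13.9% higher, with medians of -2.18 and -2.39. CDK1 was at 6.36, 5.42, 6.11 and 6.91 at day 49, against 11.31, 11.75, 11.15 and 10.82 at day 1, a difference of -5.06 (SE 0.36, limma adjusted p = 1.73e-15), with the arrays of day 49 on both sides of the array median. RRM2 was at 6.41, 6.29, 6.53 and 6.48 at day 49, against 10.92, 10.89, 10.93 and 9.65 at day 1, a difference of -4.17 (SE 0.36, limma adjusted p = 4.18e-13). The groups were wide apart for both, as for CDC20 (-4.18), CKS2 (-3.94), PLK1 (-3.83), BUB1 (-3.20), TPX2 (-3.19), MCM2 (-3.0) and PCNA (-2.80). TYMS did not follow: it was at 8.99, 9.72, 9.83 and 9.47 at day 49, against 8.53, 9.69, 9.47 and 9.13 at day 1, and the arrays of the groups overlapped. NCAPG (-0.98), CENPF (-0.96) and SMC4 (-0.95) were not called, although SMC4 fell far in fat.

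The fall lay between days 14 and 49. No member was called at day 7 against day 1 (limma, 5 at an unadjusted p under 0.05, 0% of all genes lower and 0.00801% higher) or at day 14 against day 7 (limma, 2 at an unadjusted p under 0.05, 0.00801% lower and 0% higher), and 9 S phase and 21 mitosis genes were lower at day 49 than at day 14, where 10.0% of all genes were. These ages were also unlike in their markers. Of the 7 brain markers 6 were higher at day 49 than at day 1 (10.49 to 11.34 per array against 7.69 to 8.01), 5 of 7 markers of erythroid cells were lower (7.15 to 7.48 against 9.55 to 10.15) and 6 of 9 macrophage markers were higher, with a part in the cell cycle difference that was not tested.

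In the first run of brain arrays the cell cycle genes were low from the start. MCM2 (-1.19), MKI67 (-1.70), SMC2 (-1.70) and CDK1 (-1.34) were called lower at day 42 than at day 0, where 6.26% of all 12453 genes were lower and 4.27% higher, and none was called higher. The mitosis level was -1.21 ± 0.04 at day 42 and -0.91 ± 0.08 at day 0 (SD, n = 4 each), while day 1 in the second run stood at 0.79 ± 0.12. The day 21 group, with 6 arrays and brain markers at 7.87 to 8.11, stood at 1.16 ± 0.06 for mitosis and 1.49 ± 0.09 for S phase, between groups of the same run that were below 0 at days 9 and 28.

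**Figure D3:**
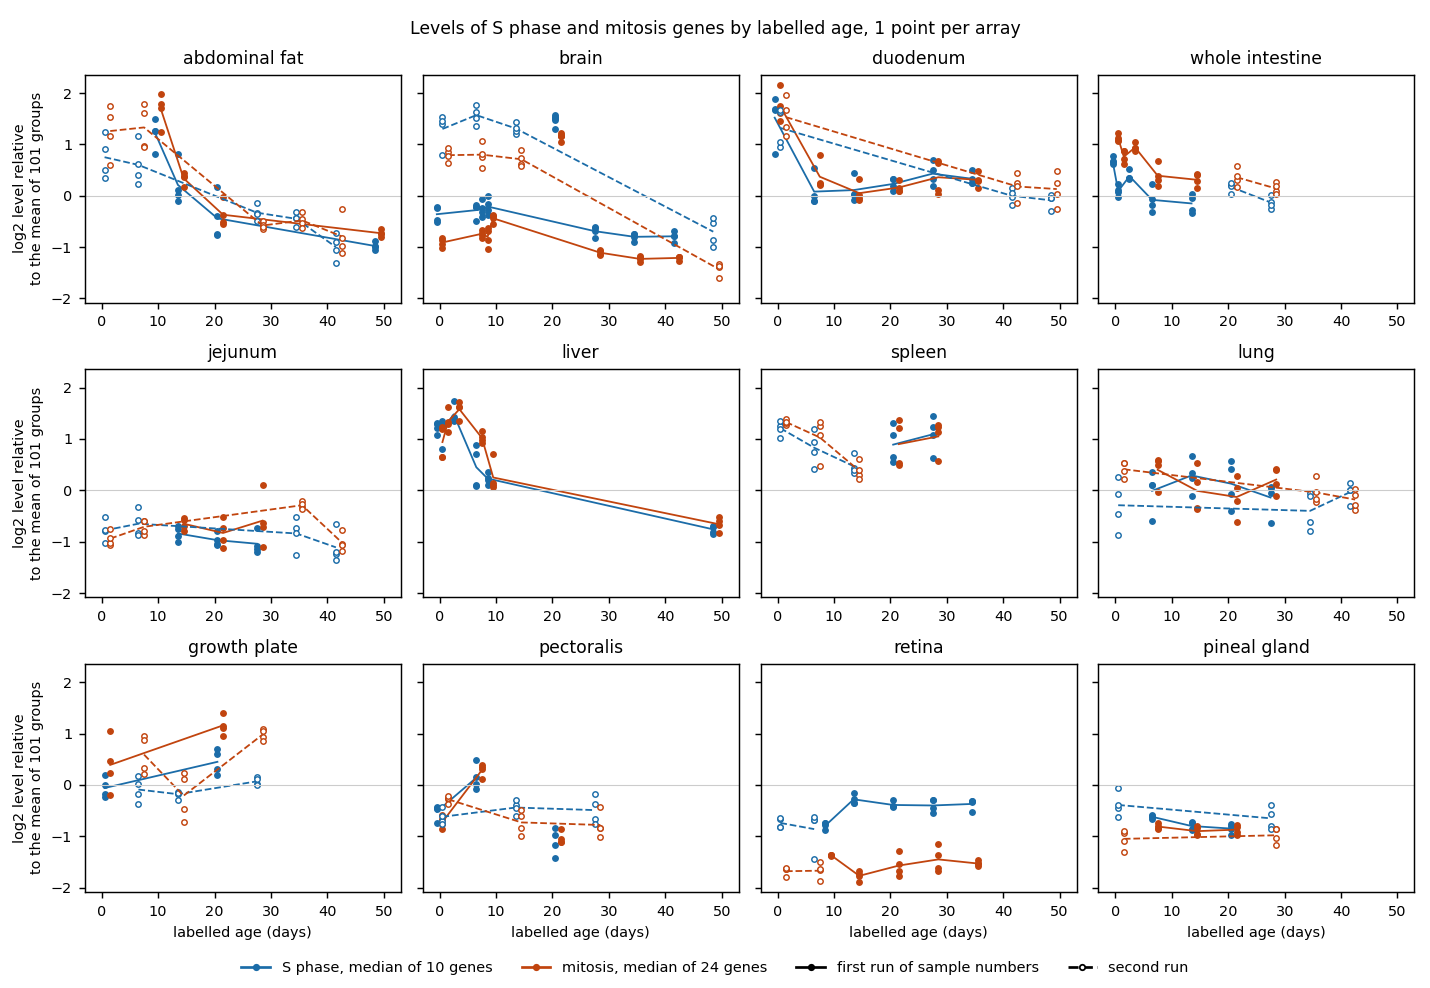
Level of the S phase genes (blue) and mitosis genes (orange) by labelled age in days in 12 tissues, 1 point per array, as the median over the class of log2 levels relative to the mean of 101 groups; filled points and solid lines are the first run of sample numbers, open points and dashed lines the second, and lines join group means except through brain day 21 and pectoralis day 21. Fat, liver and duodenum fall with age, jejunum, retina and pineal gland stay below 0 for nearly all arrays, and the 2 brain runs start at different levels. Liver day 56, the second pectoralis day 21 set and the pectoralis arrays with conflicting labels are not drawn.

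In the spleen, a blood-forming and immune organ, the members were high at day 1 and fell in part. MCM5 (-1.24), RRM2 (-1.23), SMC2 (-1.97), CKS2 (-1.97), CDC20 (-1.31) and NUSAP1 (-1.19) were called lower at day 14 than at day 1 and none higher, where 0.422% of all 12078 genes were lower and 0.488% higher. RRM2 was at 8.78, 9.30, 8.65 and 9.56 at day 14, against 10.25, 10.50, 10.17 and 10.28 at day 1. CKS2 was at 5.36, 6.68, 5.80 and 4.88 at day 14, against 7.51, 8.02, 7.79 and 7.27 at day 1. Both genes had every day 14 array below every day 1 array, with limma adjusted p = 0.04 and 0.00221. Counts were 1, 2, 2 and 3 when the arrays numbered 1, 2, 3 or 4 were left out. At days 21 and 28, in the first run, the mitosis level was 0.90 ± 0.45 and 1.05 ± 0.33 (SD, n = 4 each), not compared with the second run.

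In muscle few members changed by the test, and the day 28 arrays of both muscles are among those that matched array by array. In pectoralis CKS2 was at 5.72, 5.0, 4.97 and 4.93 at day 28, against 6.56, 6.45, 6.45 and 6.76 at day 1, and was the only member called (-1.4, limma adjusted p = 0.0372), where 0.181% of all 12138 genes were lower and 0.0906% higher. It was not called when arrays of any number were left out or when only these groups were fitted, and 9 members had an unadjusted p under 0.05. In gastrocnemius no member was called at day 28 against day 1 (limma, 8 at an unadjusted p under 0.05), where 0.1% of 11987 genes were lower and 0.0501% higher. In the first run KIF20A (1.13), MKI67 (1.25), BUB1B (1.33), SMC2 (1.60) and CDK1 (1.81) were called higher in pectoralis day 7 than at day 0, where 1.99% of all genes were. CDK1 was at 10.11, 10.00, 9.71 and 9.32 at day 7, against 8.51, 8.33, 7.64 and 7.43 at day 0, with no overlap. Counts were 1, 3, 2 and 2 without the arrays numbered 1 to 4 in turn. Of 33 members tested, PCNA (-2.16), MCM6 (-1.68), RRM1 (-1.25), MCM2 (-1.04) and 5 mitosis genes led by MKI67 (-1.96) were called lower in pectoralis day 21, the group with low muscle markers, than at day 0, and CCNE2 (1.08) higher. Of all 12681 genes 33.6% were lower and 11.5% higher. The member counts lie under these shares and are no result about the members as a list. When a gene's probe sets were averaged 4 members in all were called, and without the arrays numbered 3 there were 6.

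Retina, a tissue of post-mitotic nerve cells, held low values. Of 30 members tested, PLK1 (-1.95), ECT2 (-1.25) and CCNB3, a B-type cyclin (-1.04), were called lower at day 35 than at day 9 and MCM6 (1.18) and CCNA2 (1.14) higher. Of all 12368 genes 13.8% were lower and 17.3% higher. The member counts lie near or under these shares and are no result about the members as a list. PLK1 was at 4.57, 5.05, 4.72 and 4.98 at day 35, against 6.75, 6.68, 6.78 and 6.89 at day 9. These arrays were apart although both groups lay in the low range of the gene, whose highest group mean was 11.23. The 2 measured retina markers averaged 9.80 to 10.11 per array at day 35 against 12.52 to 12.70 at day 9, and their part was not tested.

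Lung and pineal gland gave no member called by limma in any age comparison. In lung 0 members had an unadjusted p under 0.05 at day 28 against day 7 (0% of 11677 genes called in either direction) and 9 at day 42 against day 1 (0.0489% of 12277 genes lower, 0% higher). In sign, 24 of 24 mitosis genes and 5 of 10 S phase genes were lower at day 42, with medians of -0.61 and 0.06. At day 28, 23 of 24 and 9 of 9 were lower, with medians of -0.22 and -0.21. These signs were not tested. Same-numbered arrays of lung days 28 and 7 deviated together in every pair (correlations 0.448 to 0.715), which the test above ignored. With the number as a block no member was called either. The largest lung difference was CDC20 at -1.79 (adjusted p = 0.308), with an SD of 1.83 at day 42. In the pineal gland 5 members had an unadjusted p under 0.05 at day 21 against day 7 (0.0522% of 11499 genes lower, 0.0435% higher) and 2 at day 28 against day 1 (0% of 11842 genes either way).

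The growth plate, where cartilage cells divide to lengthen the bone, had no member called between the ages compared, and its levels did not run one way with age. In the first run the mitosis level was 0.39 ± 0.52 at day 1 and 1.16 ± 0.18 at day 21, and in the second 0.59 ± 0.38 at day 7, -0.21 ± 0.45 at day 14 and 0.98 ± 0.10 at day 28 (SD, n = 4 each). At day 21 against day 1 MKI67 differed by 2.04 (SE 0.39), CKS2 by 1.93 (SE 0.46) and RRM2 by 1.59 (SE 0.36), each with limma adjusted p = 0.173. The median difference was 0.37 over the S phase genes and 0.76 over the mitosis genes, no gene of the 11882 tested was called (0%), and 17 members had an unadjusted p under 0.05. Without the arrays numbered 2, 4 members were called. At day 28 against day 7 no member was called by limma either (6 at an unadjusted p under 0.05, 0% of 12195 genes called). Cartilage markers averaged 12.82 at day 21 and 13.04 at day 1.

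**Figure D4:**
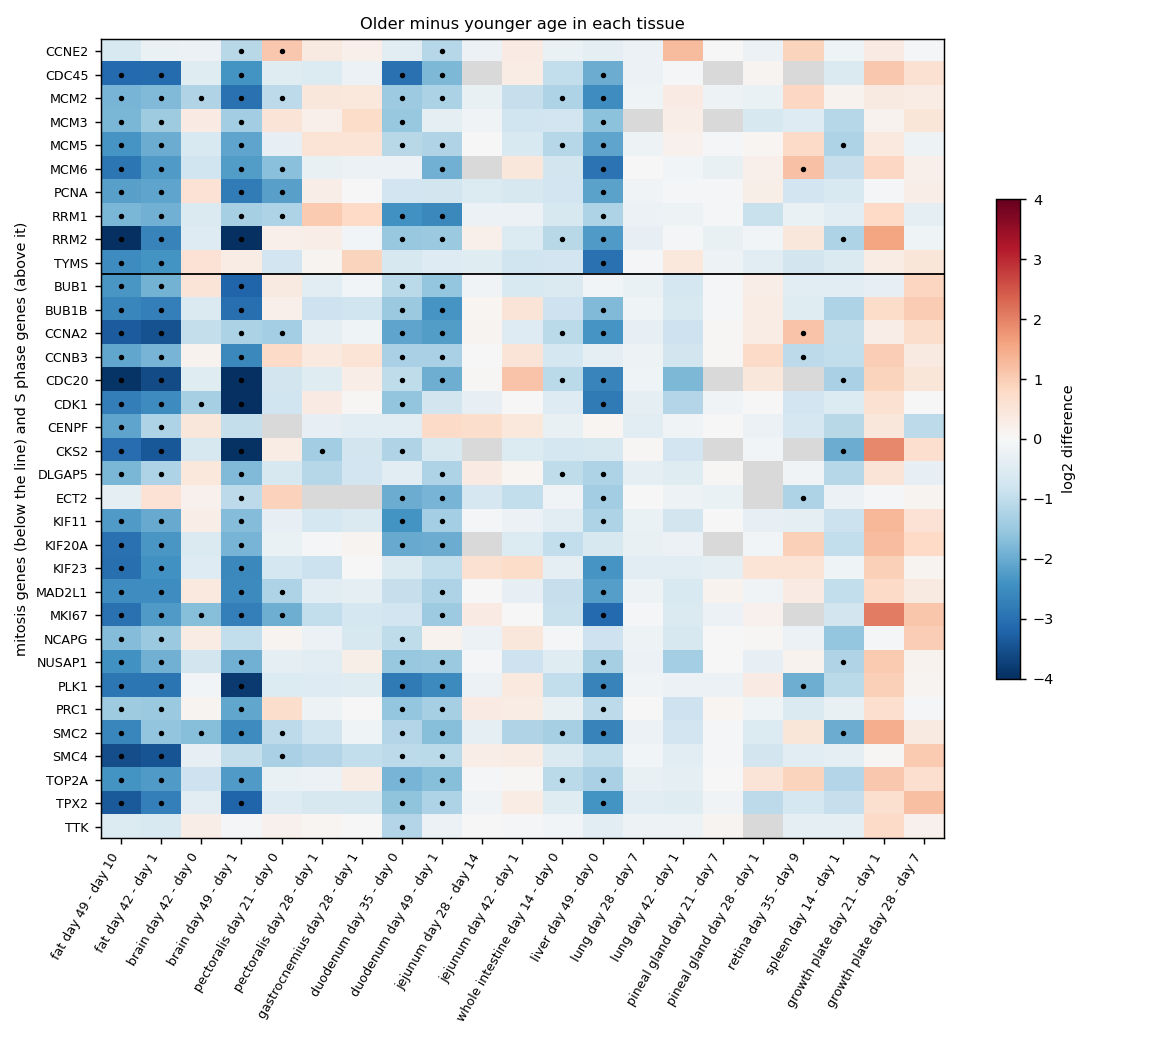
Log2 difference, older minus younger age, of the 34 members (down the page, S phase genes above the line and mitosis genes below it) in 21 age comparisons (across), blue to red as the colour bar gives, with a dot where a member was called and grey where it was not tested. The columns of abdominal fat, brain day 49 minus day 1, duodenum and liver hold most dots, and those of lung, pineal gland, jejunum, gastrocnemius and growth plate hold none.

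Tissues of the same labelled age also differed in these genes. At day 1, 10 tissues of the second run were compared, each with the mean of the other 9, so that the comparisons share arrays. Duodenum had 7 S phase and 21 mitosis genes called higher than the other tissues, where 7.45% of all 12935 genes were higher and 6.12% lower, with PLK1 at 2.69 (SE 0.28), CDK1 at 2.45 (SE 0.29) and CDC20 at 2.35 (SE 0.32). Spleen had 7 and 18 higher, where 11.9% of all genes were, led by MKI67 (2.25), CDC20 (2.20), SMC4 (2.19) and RRM2 (2.04). Abdominal fat, with low fat markers at this age, had 4 and 19 higher, where 12.5% of all genes were higher and 7.22% lower. These were led by SMC4 (2.80), PLK1 (2.28) and CCNA2 (2.20). Brain, with low brain markers, had 8 and 11 higher, where 10.6% of all genes were, led by CDC20 (2.57), CDK1 (2.41), RRM2 (2.38), PLK1 (2.30) and MCM2 (2.12), while SMC4 was lower (-1.13), where 13.0% of all genes were. PCNA in brain (2.09) was the only member whose arrays all lay above those of every other tissue.

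Retina had the lowest median difference of the mitosis genes at day 1. It had 3 S phase and 21 mitosis genes called lower, where 14.0% of all genes were, with CDK1 at -3.47, RRM2 at -3.31, CDC20 at -3.09 and SMC4 at -3.05 (SE 0.29, limma adjusted p = 1.76e-15), and for SMC4 its arrays lay below those of all other tissues. The median difference was -1.97 over the mitosis genes and -0.71 over the S phase genes. Pineal gland had 3 and 17 lower, where 6.83% of all genes were, led by PLK1 (-2.16) and MKI67 (-2.05). Jejunum had 4 and 12 lower, where 18.4% of all genes were, led by CDC20 (-2.57). Gastrocnemius had 4 and 3 lower, where 6.24% were, led by TYMS (-1.76), and pectoralis 3 and 2, where 6.32% were. In lung CCNE2 was lower (-1.23), where 4.55% of all genes were, and the spindle gene NUSAP1 higher (1.1), where 9.01% were, a count of members that was 1 without the arrays numbered 1 and 5 without those numbered 2. With all arrays neither direction exceeded the share over all genes.

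**Figure D5:**
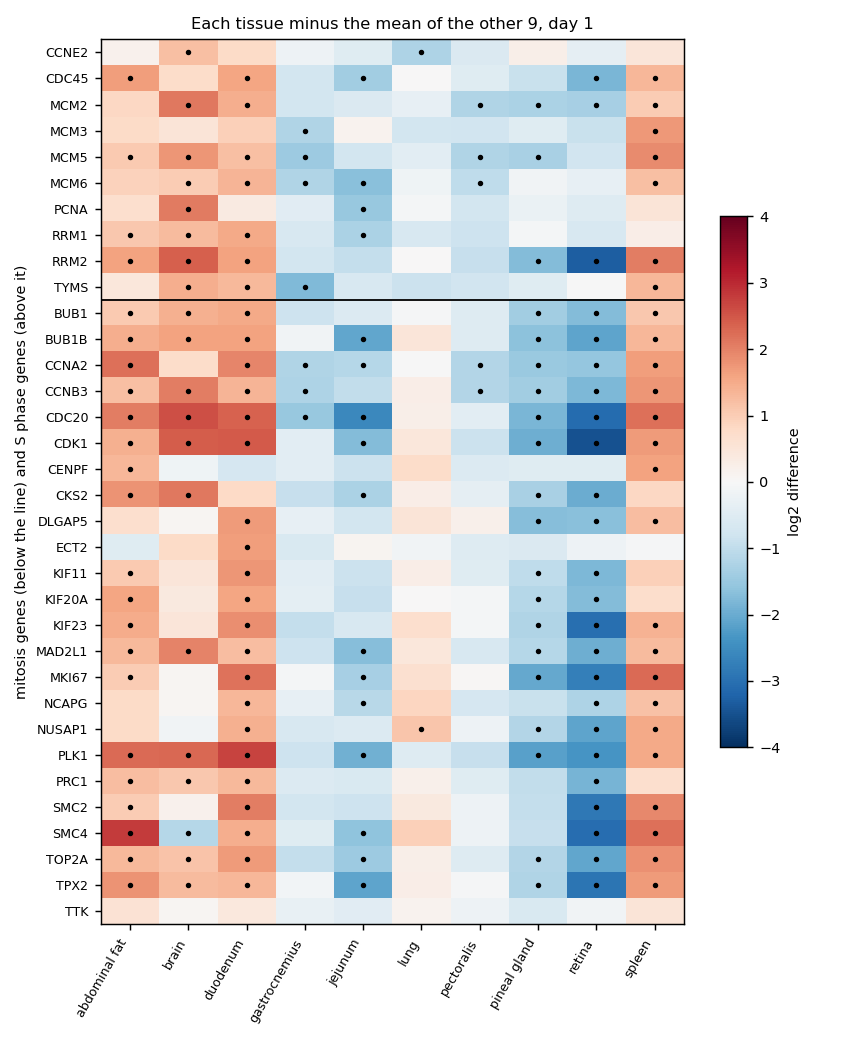
Log2 difference of the 34 members (down the page, S phase genes above the line and mitosis genes below it) between each of 10 tissues at day 1 and the mean of the other 9 (across), with a dot where a member was called. Fat, brain, duodenum and spleen are mostly higher, and retina, pineal gland and jejunum mostly lower, with CDK1 in retina lowest at -3.47.

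At day 7, 6 tissues of the second run were compared in the same way. Retina had 6 S phase and 21 mitosis genes lower, where 13.2% of all 12873 genes were, led by CDK1 (-4.32), TPX2 (-3.37), RRM2 (-3.24) and SMC2 (-3.21). TPX2, RRM2 and SMC2 had every retina array below every array of the other tissues. Jejunum had 7 and 14 lower, where 21.8% were, with PCNA at -2.33 and its arrays below all others. Abdominal fat, a group most like fat day 1 with its low fat markers, had 2 and 18 higher, where 13.5% were. SMC4 stood at 3.20 (SE 0.29, limma adjusted p = 2.37e-13) and CENPF, a protein of the chromosome's attachment site, at 2.36, both without overlap. Brain, here the second day 7 set with low brain markers, had 7 and 11 higher, where 12.2% were, with RRM1 at 2.33 (SE 0.32, limma adjusted p = 2.8e-08) without overlap, and CENPF (-1.13) and SMC4 (-1.01) lower, where 11.5% were. This set stood at 1.57 ± 0.17 for S phase and 0.80 ± 0.22 for mitosis, against -0.28 ± 0.14 and -0.74 ± 0.07 in the brain group of the same labelled day in the first run (SD, n = 4 each). Spleen had 2 and 13 higher, where 13.5% were, led by MKI67 (2.09). In the growth plate CDK1 (1.55), PRC1, which bundles the midzone of the spindle (1.19), and SMC2 (1.07) were higher, where 7.74% were, or 6 members without the arrays numbered 2 or 3. The count with all arrays lies near the share over all genes and is no result about the members as a list.

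The difference between days 42 and 1 was itself compared between fat, duodenum, jejunum and lung, each against the mean of the other 3 tissues, with arrays shared between the comparisons. In fat 7 S phase and 17 mitosis genes had a more negative difference and ECT2 a more positive one (1.54), where 29.2% of all 12886 genes were more negative and 7.86% more positive. The sizes were led by SMC4 (-3.04, SE 0.51), CKS2 (-2.87, SE 0.45), CDC20 (-2.82, SE 0.61) and CDC45 (-2.71, SE 0.45), and without the arrays numbered 1 the count of 25 was 14. In jejunum 3 S phase and 13 mitosis genes had a more positive difference, where 9.87% were, with CDC20 at 3.49 and PLK1 and BUB1B at 2.28 each, or 6 and 10 members without the arrays numbered 1 or 4. In jejunum alone no member was called at day 42 against day 1. The median member difference was -0.05 there, against -2.19 in fat, -1.33 in duodenum and -0.42 in lung, so a more positive difference is no rise in jejunum. In duodenum PLK1 (-1.61), RRM1 (-1.58), ECT2 (-1.50), KIF20A (-1.45) and CCNE2 (-1.41) were more negative and CKS2 (1.26) more positive, where 3.75% were more negative and 9.96% more positive, or 3 members without the arrays numbered 1, 2 or 3. In lung MCM2 (1.54), TYMS (1.55) and CCNE2 (1.57) were more positive, where 2.06% were, and none without the arrays numbered 3 or 4.

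Single members differed between gonad groups whose mitosis levels lay close together. TOP2A was at 10.50, 11.08 and 10.92 in testes, against 7.18, 7.76 and 7.09 in ovary week 17. SMC2 was at 10.27, 10.83 and 11.20 in testes, against 6.78, 8.16 and 7.66 in ovary. CKS2 was at 11.42, 12.20 and 11.32 in testes, against 8.62, 9.75 and 9.55 in ovary. The groups were apart for all 3 genes, with differences of 3.49 (SE 0.34, limma adjusted p = 3.41e-08), 3.23 (SE 0.37) and 2.34 (SE 0.33). PRC1 (1.42), RRM1 (1.34) and CDC45 (1.06) were also higher in testes, where 13.1% of all 12637 genes were, and KIF23 (-1.71), KIF11 (-1.36), RRM2 (-1.23) and CDK1 (-1.17) were lower, where 16.3% were. CDK1 was at 11.71, 10.89 and 11.21 in testes, against 12.45, 12.65 and 12.22 in ovary. Without the arrays numbered 2 these 10 members were 5. The counts higher and lower lie near the shares over all genes and are no result about the members as a list. Of the 14 measured germ cell and meiosis markers 10 were higher in testes (8.92 to 9.06 per array against 6.36 to 6.55 in ovary), as were 6 of 8 sperm markers (9.84 to 10.68 against 6.07 to 6.33), and their part was not tested.

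The group labelled oocytes, set against the same ovary arrays, had PRC1 at 2.76 and MCM3 at 2.60 higher, with CDC45 (1.74), MCM6 (1.34), TYMS (1.19), MCM5 (1.06), TOP2A (1.94), SMC4 (1.87), KIF20A (1.61), CENPF (1.48) and CKS2 (1.31), where 11.4% of all genes were higher. BUB1 (-1.60), KIF11 (-1.52), NUSAP1 (-1.39) and ECT2 (-1.11) were lower, where 10.9% were, a count near that share. CDC45 was at 10.01, 9.75, 10.86 and 9.23 in the group labelled oocytes, against 8.21, 7.98 and 8.47 in ovary, without overlap. Of the 7 measured oocyte markers 5 were lower and 1 higher in this group (7.67 to 7.83 per array against 8.29 to 8.86 in ovary), and their part was not tested.

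Other genes of the pathway were taken from lists of further S phase genes (42 of 50 with a probe set), mitosis genes (47 of 62), G1 regulators (23 of 27) and inhibitors or quiescence genes (16 of 20). In fat day 49 against day 10, 23 of 40 other S phase genes were lower and MCM10 (1.90) higher, 31 of 47 other mitosis genes were lower, led by CKS1B (-4.47) and CDCA3 (-3.82), and 13 of 22 G1 regulators were lower, with the growth regulators MYCN (-3.44) and MYC (-3.43), where 25% of all genes were lower and 5.44% higher. Brain day 49 was set against day 1, a group with low brain markers. There 15 of 42, 25 of 46 and 9 of 23 were lower, with CDCA3 at -6.01 and cyclin D1 (CCND1) at -2.72, and CIT (2.77) and E2F6 were higher, where 11.3% of all genes were lower and 13.9% higher. In duodenum day 35 against day 0, 14 of 42, 19 of 47 and 7 of 23 were lower, where 10.3% of all genes were, and in liver day 49 against day 0, 16 of 42, 20 of 47 and 7 of 22, where 7.94% were, with none higher in either tissue. In duodenum and liver most genes of each list were not called. CCNB1, whose entry in the gene table lists CCNB2 as a synonym, differed by -3.47 in fat day 49 against day 10, by -4.23 in brain day 49 against day 1 and by -2.56 in liver day 49 against day 0.

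Some inhibitors were called in each of these tissues, and the values given are those of single genes. CDKN1A, which codes for the CDK inhibitor p21, averaged 9.97 in brain day 49 and 6.98 at day 1, a group with low brain markers. The difference was 2.99 (SE 0.36, limma adjusted p = 5.21e-09). In liver CDKN1A averaged 8.70 at day 49 and 6.87 at day 0, a rise of 1.83 (SE 0.23, limma adjusted p = 3.55e-07). In fat it averaged 6.96 at day 49 and 9.61 at day 10, a difference of -2.65 (SE 0.40, limma adjusted p = 3.62e-05). CDKN2B, an inhibitor of the G1 kinases, averaged 10.32 in liver day 49 and 5.62 at day 0, a difference of 4.71 (SE 0.39), and 6.04 in fat day 49 and 10.13 at day 10, a difference of -4.09 (SE 0.38). CDKN2A went the same way as CDKN2B in both tissues, at 2.92 in liver and -3.14 in fat. Whether liver and fat differed in these genes was not tested. In all, 4 of 16 inhibitors were higher and 3 lower in liver, where 4.76% of all genes were higher and 7.94% lower. In fat day 49 1 was higher and 6 lower, where 5.44% of all genes were higher and 25% lower. In brain 2 were higher and 3 lower, where 13.9% were higher and 11.3% lower, and in duodenum 2 each, where 10.2% were higher and 10.3% lower. In brain and duodenum the counts higher lie near the share over all genes and are no result about the list.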

How the data were processed

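RNA was measured on Affymetrix Chicken Genome arrays. The authors deposited log2 intensities per probe set, made with Affymetrix Expression Console 1.1 per the submitters' processing notes; the sources used here name no normalization method (not given). Of 38535 probe sets 27168 name 1 gene symbol, 177 several and 11094 none, and 96 are controls. For each of the 13009 genes the brightest probe set on average was kept. Genes entered a test if the mean of at least 1 group of the fit reached the 25th percentile of the values of probe sets naming 1 gene on the arrays of that fit. Differences were tested with limma 3.58.1 (R 4.3.3; lmFit and eBayes, 1 mean per group, Benjamini-Hochberg over all genes of a comparison), within a run of sample numbers. A gene was called at an adjusted p under 0.05 and an absolute log2 difference of at least 1. Levels and figures were computed with Python 3.11.15, pandas 2.3.3 and matplotlib 3.10.9. The fit was tested on simulated data, where in fat day 42 against day 1 (12657 genes) it recovered 66%, 88% and 100% of genes changed by 1.5, 2 and 3 log2 units, and in the test of that difference against the other 3 tissues (12886 genes) 50%, 72% and 100%. The number of arrays limits the precision, and no read depth applies.

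The members and lists were chosen with earlier results of these data known. Named in each comparison were called members whose arrays do not overlap between groups, by size, up to 6 S phase and 8 mitosis genes per direction, and up to 3 members not called; others given were chosen after their values were seen. Array values were given mainly for the 4 S phase and 6 mitosis genes with the widest range of group means. Replicate numbers come from the labels. Of 23 comparisons checked, same-numbered arrays deviated together in every pair in 2, lung day 28 against day 7 (correlations 0.448 to 0.715) and testes against ovary (0.106 to 0.483).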

Additional observations from a re-analysis of the deposited data

Results flagged for a closer look

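In 13 of 192 tests of a group and a class, 1 array lay far from the others of its group; chance alone marks about 1 in 20 groups. For the S phase level these were brain day 21 array 3 at 1.31, brain day 7 array 1 at -0.50, pectoralis day 0 array 2 at -0.74, cecal epithelia day 14 array 1 at 0.86, duodenum day 7 array 3 at 0.54, whole intestine day 3 array 3 at 0.52, liver day 1 array 3 at 0.80, retina day 35 array 1 at -0.52 and retina day 7 array 4 at -1.43. For the mitosis level they were duodenum day 7 array 3 at 0.80, liver day 9 array 3 at 0.70, lung day 7 array 3 at -0.03 and retina day 1 array 2 at -1.80. The third duodenum array of day 7 stood out in both classes.

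The difference between days 42 and 1 itself differed between a tissue and the mean of the other 3, by limma's test of the difference, for 25 members in fat, 6 in duodenum, 16 in jejunum and 3 in lung. More negative were 24 in fat and 5 in duodenum, and the rest were more positive. In jejunum and in lung alone no member was called between these days. Of all 12886 genes 29.2% were more negative and 7.86% more positive in fat. These shares were 3.75% and 9.96% in duodenum, 3.18% and 9.87% in jejunum, and 1.54% and 2.06% in lung.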

How the results depend on the processing

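Of 810 recomputed counts of members called over 66 comparisons, 719 were within 1.5 times the reported count and 91 were not; of 3545 recomputed values of members, none reversed and 224 were no longer called, 63 of these with probe sets averaged. Of 404 recomputed class levels 93 moved by more than 1 SD, 83 with probe sets averaged. The cause of these changes was not tested. Alternatives for the steps between ages, the groups left out and most of the median centring were chosen after seeing the data. In each pair of counts the first is the reported count and the other that of the alternative. Quantile normalization gave 0 and 1 for jejunum day 28 minus day 14, 5 and 8 for retina, 2 and 1 for lung at day 1, 20 and 13 for fat at day 7, 25 and 13, 16 and 9, and 3 and 0 for the age change in fat, jejunum and lung against other tissues, 5 and 3 for fat day 21 minus day 14, 5 and 1 for fat day 42 minus day 35, 3 and 5, 1 and 0, and 10 and 5 for liver day 1 minus day 0, day 3 minus day 1 and day 9 minus day 7, and 5 and 0 for pectoralis day 7 minus day 0. Averaged probe sets gave 10 and 4 for pectoralis day 21, 9 and 4 for whole intestine, 2 and 1, 5 and 3, and 20 and 12 for lung, pectoralis and pineal gland at day 1, 15 and 9 for spleen at day 7, 9 and 4 for fat day 49 minus day 21, 5 and 2 for fat day 42 minus day 35, 3 and 0, 1 and 0, and 16 and 10 for liver day 1 minus day 0, day 3 minus day 1 and day 49 minus day 9, and 5 and 8 for pectoralis day 7. Array weights gave 3 and 7 for the age change in lung, 5 and 9 for fat day 21 minus day 14, 0 and 1 for fat day 35 minus day 28, 29 and 12, and 5 and 8 for duodenum day 7 minus day 0 and day 14 minus day 7, 3 and 1, and 1 and 0 for liver day 1 minus day 0 and day 3 minus day 1, and 5 and 13 for pectoralis day 7. Fits of only the groups compared gave 1 and 0 for pectoralis day 28, 5 and 1 for fat day 21 minus day 14, 29 and 15 for duodenum day 7, 1 and 0 for liver day 3 and 5 and 8 for pectoralis day 7. Without the brain arrays pectoralis at day 1 gave 5 and 2 and growth plate at day 7 gave 3 and 5. Without the groups that stand apart liver day 3 gave 1 and 0 and pectoralis day 7 gave 5 and 8. Median centring gave 5 and 9 for fat day 42 minus day 35.

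With the replicate number as a block the counts moved beyond 1.5 times for growth plate day 21 minus day 1 (0 and 1), liver day 3 minus day 1 (1 and 0) and pectoralis day 7 minus day 0 (5 and 9); in the 2 comparisons whose numbers pair the arrays they stayed at 0 and 10.

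Leaving out the arrays of each number in turn gave 0 to 0 for pectoralis day 28 minus day 1 (reported 1), 0 to 1 for jejunum day 42 minus day 1 (0), 1 to 3 for spleen (6), 1 to 5 for lung at day 1 (2), 2 to 6 for growth plate at day 7 (3), 14 to 25, 3 to 4, 6 to 14 and 0 to 3 for the age change in fat (25), duodenum (6), jejunum (16) and lung (3) against other tissues, 1 to 10 for fat day 21 minus day 14 (5), 0 to 1 for fat day 35 minus day 28 (0), 1 to 5 for fat day 42 minus day 35 (5), 3 to 8 for liver day 1 minus day 0 (3), 0 to 1 for liver day 3 minus day 1 (1), 1 to 3 for pectoralis day 7 minus day 0 (5), 6 to 9 for pectoralis day 21 minus day 0 (10), 0 to 4 for growth plate day 21 minus day 1 (0), 5 to 10 for testes minus ovary (10), 3 to 9 for duodenum day 14 minus day 7 (5), 12 to 22 for duodenum day 42 minus day 1 (22) and 5 to 12 for whole intestine (9). Probe sets that are dim give no order among low levels, and the number of arrays limits every test.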
